A study of Mus musculus with 15 samples.

Results

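The genes described here encode 10 receptors and regulators of mitophagy, the removal of mitochondria by autophagy. They were taken from a list of names, *Bnip3*, *Bnip3l*, *Fundc1*, *Fundc2*, *Pink1*, *Phb2*, *Bcl2l13*, *Fkbp8*, *Smurf1* and *Tomm20*, matched to the gene symbols of the deposited data, and the rule uses no expression threshold. All 10 were measured in both data sets, among the 11677 genes of the cultures, the 11299 genes of the microdissected regions and the 11041 genes common to both.

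All samples came from 21EM15, an immortalized line of mouse lens epithelial cells, labelled WT, and the labels name no treatment. They comprised 4 samples of flat cultures (2D), 4 of spheroids grown without attachment (3D), 4 cut by laser from the internal region of such spheroids and 3 from their external region (laser capture microdissection). The model is thus a single immortalized line without the other tissues of the eye, and the intermediate region of the spheroids was not sampled. RNA was read from the 3′ end of each transcript, so a long transcript gives no more reads than a short one. Reads of single genes may still be incomplete, as given below for some members, so levels of different genes compare only approximately. Levels are given in log2 CPM, the log2 of read counts scaled to library size, in which a difference of 1 is a 2-fold change. The cultures and regions were extracted with different kits and normalized separately, so tests were made within the cultures and within the regions, which share no sample. Per the methods, each replicate was prepared from its own dish or its own pool of spheroids, but neither the labels nor the methods say whether these were grown as independent cultures, and p-values then measure only the spread between these samples, which may be technical.

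In mitophagy, a damaged or surplus mitochondrion is marked at its outer membrane and enclosed in an autophagosome. In the receptor route, proteins anchored in the mitochondrion (BNIP3, its homologue BNIP3L, also called NIX, FUNDC1, BCL2L13 and FKBP8) bind the LC3 and GABARAP proteins of the autophagosome directly. In the ubiquitin route, the kinase PINK1 accumulates on mitochondria that have lost their membrane potential and phosphorylates ubiquitin there. The lens is a tissue in which this matters for function, since fiber cells lose mitochondria, nuclei and other organelles as they mature, and BNIP3L is known to be required for the loss of mitochondria in the mouse lens.

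BNIP3 and FUNDC1 each have a short core by which they bind LC3, and the coding stretches that hold it are shown because this core is what makes them receptors. The capitals mark the 4 codons of the core, which begin with a codon for an aromatic residue and end with one for leucine. They are codons 13 to 16 of *Bnip3* and 18 to 21 of *Fundc1*, in the coding strand of the GENCODE vM21 transcripts, each with 6 codons on either side.
Bnip3: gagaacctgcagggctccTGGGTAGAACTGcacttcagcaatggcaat
Fundc1: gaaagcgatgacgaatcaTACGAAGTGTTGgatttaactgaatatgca
Aligned without gaps on the core, *Bnip3* and *Fundc1* had the same base at 6 of the 12 core positions and at 19 of the 48 positions shown. The coding sequence of *Fundc2*, the closest relative of *Fundc1* (151 codons against 155), held 0 matches to the pattern of *Fundc1*, a tyrosine codon followed at the third codon after it by a leucine codon.

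On GRCm38, with the GENCODE vM21 annotation, *Bnip3* (ENSMUSG00000078566) lies at chr7:138890836-138909519 and *Bnip3l* (ENSMUSG00000022051) at chr14:66985239-67008877, both on the minus strand. *Fundc1* (ENSMUSG00000025040) lies at chrX:17556564-17572325 on the minus strand and *Fundc2* (ENSMUSG00000031198) on the plus strand of the same chromosome, at chrX:75382399-75396459. *Pink1* (ENSMUSG00000028756) occupies chr4:138313409-138326307 on the minus strand. *Phb2* (ENSMUSG00000004264, chr6:124712336-124716950) and *Bcl2l13* (ENSMUSG00000009112, chr6:120836212-120892842) share chromosome 6 and the plus strand. *Fkbp8* (ENSMUSG00000019428, plus strand) is at chr8:70527724-70535328, *Tomm20* (ENSMUSG00000093904, minus strand) at chr8:126930667-126945844, and *Smurf1* (ENSMUSG00000038780, minus strand) at chr5:144876495-144965847. *Bnip3*, *Phb2* and *Tomm20* share stretches of 50 bases within the last 300 bases of their transcripts with 4, 1 and 7 other annotated genes respectively, so their uniquely mapped reads may be incomplete and their levels are uncertain. The other 7 members had no such stretch.

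Between 7305053 and 9362587 reads were counted per sample of the cultures, and between 4044230 and 11702504 per sample of the regions. The member with the fewest reads, *Bcl2l13*, had between 59 and 243 per sample, so none of the 10 genes was near 3 reads, taken as the limit of detection. A sample is a mixture of cells, and fewer cells of a type and less RNA per cell cannot be told apart. The label of a lens epithelial line was checked against 11 epithelium markers, of which 6 were measured (among them *Pax6*, *Six3* and *Cryab*) and 5 were not in the tables (*Foxe3*, *Cryaa*, *Cdh1*, *Sox2* and *Pitx3*). *Cryab*, *Prox1* and *Meis1* of this list are also expressed in fiber cells, and they were higher internally by 0.43, 1.45 and 1.09 on the log2 scale (adjusted p = 0.041, 1.3e-07 and 0.000367), so the sum does not measure epithelium alone. The rise was not confined to these genes, as *Pax6* was 0.65 higher internally (limma adjusted p = 0.00601). *Six3* was at 0.39 (adjusted p = 0.071) and *Cdh2* at -0.13 (adjusted p = 0.684). The 6 summed to 1470 to 1790 CPM in 3D against 906 to 1400 in 2D, and to 1500 to 1740 internally against 931 to 1000 externally. Of 10 lens fiber markers, 0 were in the culture data and 1, *Bfsp1*, in the region data, at 1.70 to 4.46 CPM internally and 0 to 2.48 externally. The fibroblast markers measured (8 in the cultures, 7 in the regions) summed to 787 to 1140 CPM in 3D against 129 to 316 in 2D, and to 1040 to 1280 internally against 325 to 785 externally. Of the single fibroblast markers, 5 passed as higher in 3D and 0 as lower (9.74% and 9.25% of all genes), and internally 3 passed as higher and 1, *Col1a1*, as lower (-1.56, adjusted p = 0.000206), against 9.58% and 12.1% of all genes. The part of these markers in the results below was not tested.

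In 3D spheroids, *Pink1*, *Fundc1* and *Bnip3l* were higher than in 2D cultures and *Phb2* was lower. In the internal region, *Fundc1*, *Pink1*, *Smurf1* and *Bnip3l* were higher than in the external region, and *Phb2* and *Fundc2* were lower. The largest differences were those of *Pink1* in 3D, 4.33-fold, and of *Fundc1* internally, 2.46-fold. *Bnip3*, *Bcl2l13*, *Fkbp8* and *Tomm20* passed the test in neither comparison. A gene is said here to pass at a limma adjusted p under 0.05, and a stricter rule, that of the study's results section, asks for an adjusted p under 0.01 together with a log2 fold change beyond 1 in either direction.

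**Figure D1:**
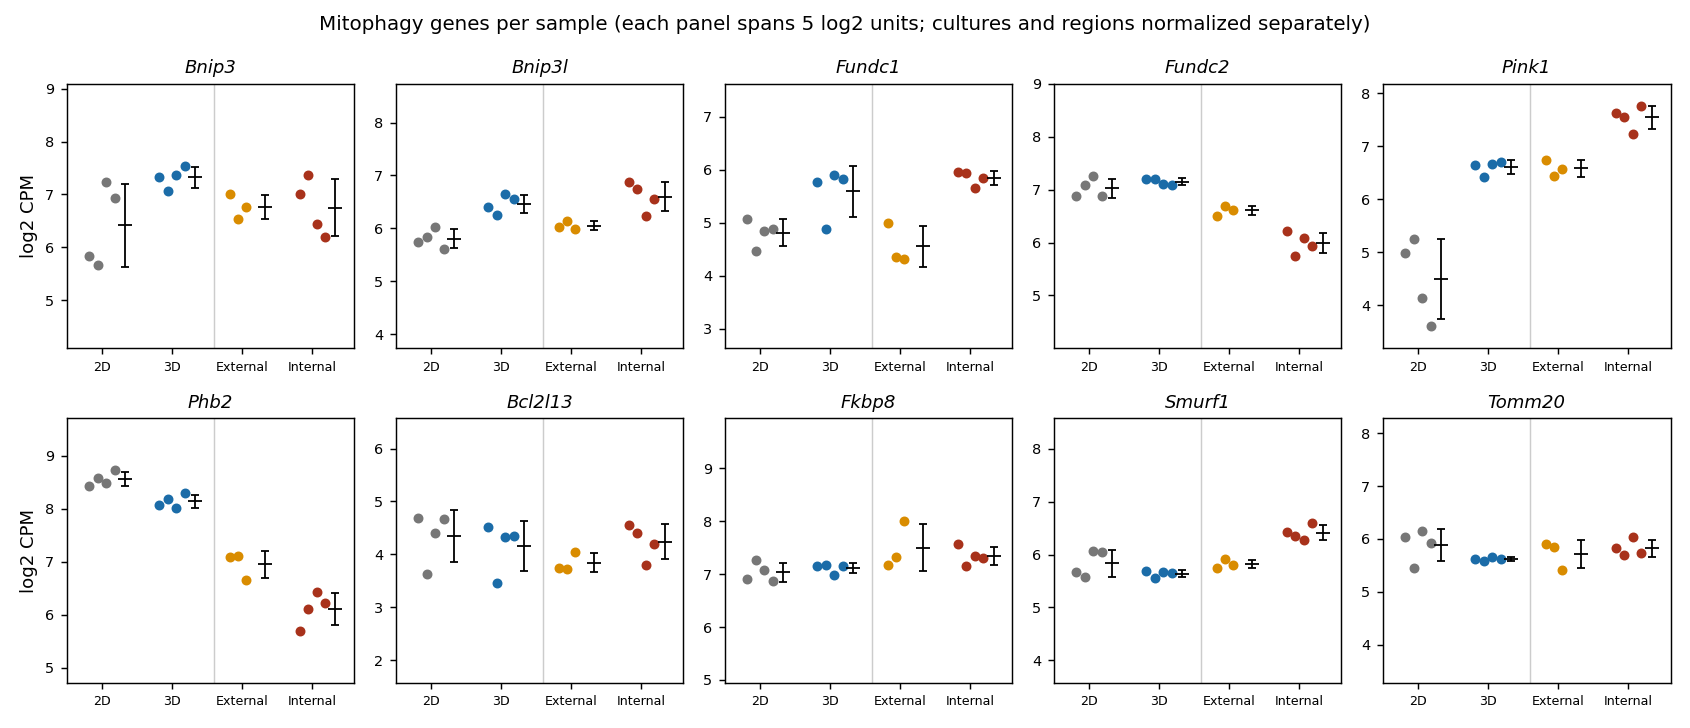
Level of each of the 10 genes in log2 CPM (vertical axis, 5 log2 units in every panel) in each sample of 2D cultures, 3D spheroids, the external and the internal region. Points are samples and black bars give the mean and SD of 4 samples (3 for the external region). The *Pink1* points of 3D spheroids and of the internal region all lie above those of their counterparts, and those of *Phb2* all lie below.

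At the outer membrane, *Bnip3l* is the receptor that clears mitochondria from maturing red blood cells and lens fibers. In 2D cultures its level was 5.75, 5.83, 6.03 and 5.6 log2 CPM in replicates 1 to 4, and in 3D spheroids 6.40, 6.25, 6.65 and 6.55. Every 3D sample was above every 2D sample. The difference was 0.66 on the log2 scale (SE 0.14, 95% interval 0.34 to 0.98, adjusted p = 0.0121), a 1.58-fold higher level, and it passed in all 16 alternative fits. In the regions, *Bnip3l* was at 6.87, 6.75, 6.23 and 6.55 log2 CPM internally and at 6.03, 6.14 and 5.98 externally. The groups again did not overlap, although the lowest internal sample, replicate 3, was close to the highest external one. The internal level was 0.55 higher on the log2 scale (SE 0.18, 95% interval 0.17 to 0.93, adjusted p = 0.0335), 1.47-fold. That call was lost on leaving out any single sample other than internal replicate 3, with a difference of 0.46 without internal replicate 1, 0.50 without internal replicate 2, 0.57 without internal replicate 4, and 0.54, 0.60 and 0.52 without external replicates 1, 2 and 3 (adjusted p between 0.0511 and 0.117). It was also lost with no variance trend (adjusted p = 0.111) and with samples centred on their median (adjusted p = 0.065).

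*Bnip3*, the homologue of *Bnip3l* and a well-known target of the hypoxia-inducible factor HIF, had the largest SD in flat culture, 0.79, close to the 0.76 of *Pink1*. *Bnip3* stood at 5.83, 5.66, 7.24 and 6.94 log2 CPM in the 2D replicates, that is from 369 to 1289 reads, against 7.33, 7.06, 7.37 and 7.53 in 3D. The 2D samples fell into a lower and a higher pair, and 2D replicate 3 lay within the 3D range. The difference of 0.91 on the log2 scale (SE 0.32, 95% interval 0.20 to 1.62, adjusted p = 0.0741) did not pass, and it passed at 1.18 without 2D replicate 3 (adjusted p = 0.0229). In the internal region *Bnip3* was at 7.0, 7.37, 6.44 and 6.19 log2 CPM and in the external region at 7.0, 6.54 and 6.76. The external samples lay within the internal range. The difference of -0.02 (95% interval -0.47 to 0.44, adjusted p = 0.97) did not pass, and its sign was positive at 0.09, 0.17 and 0.10 without internal replicate 3, internal replicate 4 and external replicate 1.

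*Fundc1* encodes a receptor of the outer membrane that acts in hypoxia-induced mitophagy. Its level in 2D was 5.07, 4.46, 4.85 and 4.88 log2 CPM, and in 3D 5.77, 4.88, 5.91 and 5.83. Replicate 2 of 3D lay inside the 2D range while the other 3D samples lay above it. The 3D level was 0.78 higher on the log2 scale (SE 0.24, 95% interval 0.26 to 1.31, adjusted p = 0.0438), 1.72-fold. Replicate 2 was the lowest sample in 2D as well as in 3D. The call held without 2D replicate 1 and, at 1.02 (adjusted p = 0.00783), without 3D replicate 2. It also held, at 0.9 (adjusted p = 0.00428), without both samples numbered 2. It was lost at 0.66, 0.80 and 0.81 without 2D replicates 2, 3 and 4, and at 0.73, 0.68 and 0.71 without 3D replicates 1, 3 and 4 (adjusted p between 0.0694 and 0.127), as well as with no variance trend (adjusted p = 0.0705) and with read totals as library sizes (0.74, adjusted p = 0.058).

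Between the regions, the call of *Fundc1* did not rest on any single sample. Internal samples gave 5.95, 5.94, 5.66 and 5.85 log2 CPM (219 to 692 reads) and external samples 5.0, 4.35 and 4.31 (73 to 193 reads). All internal samples were above all external samples. *Fundc1* was 1.30 higher internally on the log2 scale (SE 0.23, 95% interval 0.82 to 1.78, adjusted p = 0.000226), 2.46-fold, and passed in all 14 alternative fits.

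*Fundc2*, the other member of the FUNDC family, passed in the regions and not in the cultures. Its levels were 6.88, 7.09, 7.26 and 6.89 log2 CPM in 2D and 7.21, 7.21, 7.10 and 7.09 in 3D, and the difference of 0.12 (95% interval -0.15 to 0.40, adjusted p = 0.519) did not pass. Internal samples stood at 6.21, 5.75, 6.08 and 5.93 and external samples at 6.51, 6.69 and 6.62. All internal samples were below all external ones. *Fundc2* fell by 0.61 on the log2 scale internally (SE 0.18, 95% interval -0.98 to -0.24, adjusted p = 0.0156), 1.53-fold. The call was lost without internal replicate 2 (-0.53, adjusted p = 0.0573) and without external replicate 2 (-0.57, adjusted p = 0.0713), and also with no variance trend (adjusted p = 0.0606).

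Set against each other within a sample, *Fundc1* minus *Fundc2* was -2.21 ± 0.37 log2 units (SD, n = 4) in 2D, -1.55 ± 0.53 (n = 4) in 3D and -2.05 ± 0.48 (n = 3) in the external region. In the internal region it was -0.14 ± 0.27 (n = 4), from -0.42 to 0.20. The paralogues were thus at like levels there, while the external values ran from -2.35 to -1.5. This pair was chosen after the values were seen, and the difference is given without a test.

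**Figure D2:**
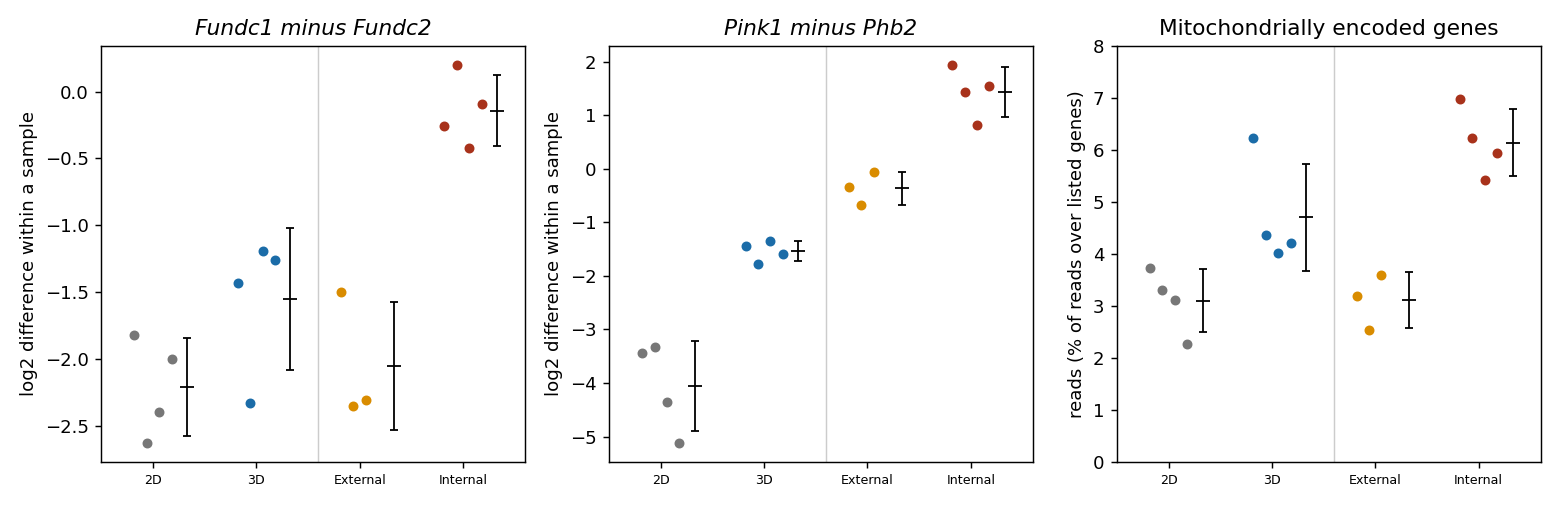
Difference in log2 CPM between *Fundc1* and *Fundc2* (left) and between *Pink1* and *Phb2* (centre) within each sample, and the share of counted reads that came from 7 mitochondrially encoded genes (right, in percent), for 2D, 3D, external and internal samples. Points are samples and bars the mean and SD. *Fundc1* reaches the level of *Fundc2* in the internal region, where *Pink1* lies 0.82 to 1.94 log2 units above *Phb2*, and the read share is 5.42% to 6.98% internally against 2.53% to 3.6% externally.

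*Pink1*, the kinase that starts the ubiquitin route, differed most of the 10 genes between the cultures. Flat cultures had 4.99, 5.25, 4.14 and 3.61 log2 CPM (115 to 302 reads), and spheroids 6.64, 6.42, 6.67 and 6.71 (692 to 842 reads). Every 3D sample was more than 1 log2 unit above the highest 2D sample, and the 2D samples varied much more (SD 0.76) than the 3D samples (SD 0.13). The difference was 2.11 on the log2 scale (SE 0.31, 95% interval 1.42 to 2.80, adjusted p = 0.00213), or 4.33-fold. The internal region held 7.63, 7.55, 7.24 and 7.76 log2 CPM and the external region 6.74, 6.43 and 6.58, again without overlap. *Pink1* was 0.96 higher internally (SE 0.16, 95% interval 0.62 to 1.29, adjusted p = 0.000122), 1.94-fold. Both calls held in every alternative fit, with differences between 1.82 and 2.36 in the cultures and between 0.88 and 1.06 in the regions when single samples were left out.

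*Phb2* encodes prohibitin 2, an inner membrane protein that binds LC3 once the outer membrane has ruptured and that also acts in cristae structure and respiration. It was the most abundant member in both cultures, at 8.43, 8.58, 8.49 and 8.73 log2 CPM in 2D and 8.07, 8.19, 8.02 and 8.30 in 3D. Each 3D sample was below each 2D sample. *Phb2* fell by 0.41 on the log2 scale in 3D (SE 0.12, 95% interval -0.67 to -0.15, adjusted p = 0.0359), 1.33-fold. This call held without 2D replicate 1 and without 2D replicate 2. It was lost without 2D replicates 3 and 4 (-0.43 and -0.35) and without 3D replicates 1 to 4 (-0.39, -0.43, -0.37 and -0.46), with adjusted p between 0.0515 and 0.104, and it was also lost when samples were centred on their median (adjusted p = 0.0746), with no variance trend (adjusted p = 0.0751) and without both samples numbered 2 (adjusted p = 0.0652).

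Across the regions *Phb2* stood at 5.69, 6.10, 6.42 and 6.22 log2 CPM internally and at 7.09, 7.11 and 6.65 externally, without overlap. It fell by 0.84 internally (SE 0.19, 95% interval -1.24 to -0.44, adjusted p = 0.00258), 1.79-fold, and passed in every alternative fit but that with no variance trend (adjusted p = 0.0533). Within samples, *Pink1* minus *Phb2* was -4.06 ± 0.84 log2 units (SD, n = 4) in 2D, -1.54 ± 0.18 (n = 4) in 3D, -0.36 ± 0.31 (n = 3) externally and 1.44 ± 0.46 (n = 4) internally. The 3D mean lay below those of both regions of such spheroids, so cultures and regions cannot be compared here. In the internal region *Pink1* was above *Phb2* in every sample, with the limit that the reads of *Phb2*, which shares 3′ sequence with another gene, may be incomplete. This pair, too, was chosen after the values were seen, and was not tested.

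*Smurf1* encodes a ubiquitin ligase that acts in selective autophagy besides its role in BMP signalling. In the cultures it was at 5.67, 5.57, 6.06 and 6.05 log2 CPM in 2D and 5.69, 5.55, 5.67 and 5.65 in 3D, with a difference of -0.20 (95% interval -0.53 to 0.14, adjusted p = 0.384). In the regions it was at 6.42, 6.35, 6.28 and 6.60 internally and 5.75, 5.91 and 5.81 externally. The regions did not overlap, whereas the 3D samples lay inside or just below the 2D range. *Smurf1* was 0.59 higher internally on the log2 scale (SE 0.18, 95% interval 0.22 to 0.96, adjusted p = 0.0193), 1.5-fold. The call was lost at 0.52 without internal replicate 4 (adjusted p = 0.0602) and at 0.55 without external replicate 1 (adjusted p = 0.0504), and also with no variance trend (adjusted p = 0.0524).

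The remaining members passed in neither comparison. *Bcl2l13*, the mammalian counterpart of the yeast receptor Atg32, was the least abundant member in all 4 groups. It ranged from 3.63 to 4.68 log2 CPM in 2D, 3.46 to 4.52 in 3D, 3.79 to 4.56 internally and 3.72 to 4.05 externally. The difference was -0.18 in 3D (95% interval -0.84 to 0.48, adjusted p = 0.705), changing to 0.05 without 3D replicate 2, and 0.40 internally (95% interval -0.26 to 1.05, adjusted p = 0.408). Both intervals reach past 0.8 in 1 direction, so differences close to that size could not be told from none at this depth and replicate number. *Fkbp8* encodes an outer membrane receptor that also holds BCL2 at mitochondria. Its level was 6.88 to 7.27 log2 CPM in 2D, 6.99 to 7.18 in 3D and 7.16 to 7.57 internally, while the external samples were at 7.17, 7.33 and 8.01. External replicate 3 stood above all other samples, and the internal difference of -0.16 (95% interval -0.53 to 0.21, adjusted p = 0.573) became 0.09 without it. For 3D against 2D, the *Fkbp8* difference was 0.09 (95% interval -0.19 to 0.36, adjusted p = 0.666).

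*Tomm20* encodes a receptor subunit of the TOM complex, through which proteins enter mitochondria, and is widely used as a marker of the outer membrane. Its transcript was at 6.03, 5.45, 6.15 and 5.92 log2 CPM in 2D, and in 3D at 5.63, 5.58, 5.65 and 5.63. In 2D, 3 samples were above all 3D samples and replicate 2 was below them. The difference of -0.26 (95% interval -0.62 to 0.10, adjusted p = 0.284) passed at -0.41 without 2D replicate 2 (adjusted p = 0.0435). Internally *Tomm20* was at 5.83, 5.69, 6.04 and 5.73, and externally at 5.90, 5.84 and 5.41. The internal difference was 0.10 (95% interval -0.32 to 0.52, adjusted p = 0.764) and -0.05 without external replicate 3.

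**Figure D3:**
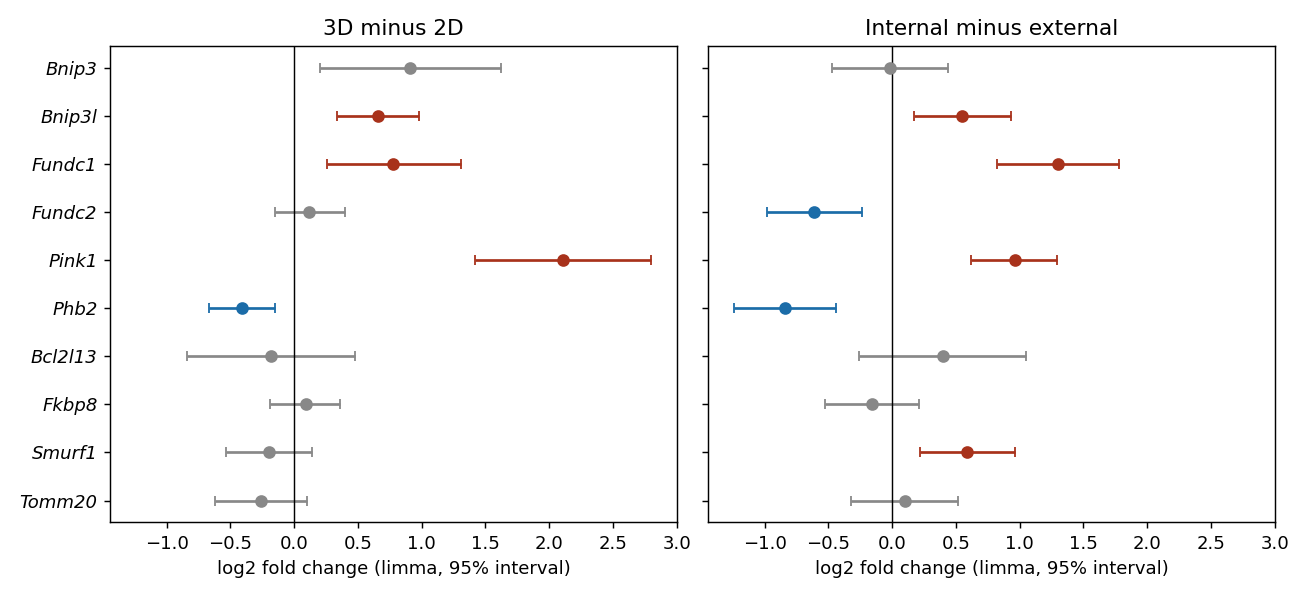
Log2 fold change of each of the 10 genes in 3D against 2D (left) and internal against external (right), with 95% intervals from limma. Red marks genes that passed the test and were higher, blue those that passed and were lower, and grey those that did not pass. *Bnip3l*, *Fundc1* and *Pink1* are red and *Phb2* is blue on both sides, while *Smurf1* and *Fundc2* are coloured for the regions only.

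Counted over the group, 3 of 10 members passed as higher in 3D, where 9.74% of all genes did, and 1 as lower, against 9.25% of all genes. Under the stricter rule *Pink1* alone was higher, against 2.92% of all genes, and 0 members as lower, against 1.51%. The samples of 2D and 3D did not overlap for 3 members (*Bnip3l*, *Pink1* and *Phb2*), and for 24% of all genes. The median log2 fold change of the members was 0.10 and that of all genes -0.03. For the regions, 4 of 10 members passed as higher internally, against 9.58% of all genes, and 2 as lower, against 12.1%. Under the stricter rule *Fundc1* alone was higher, where 3.27% of all genes were, and 0 members were lower, where 4.35% were. The groups did not overlap for 6 members, against 29% of all genes, and the members' median was 0.25 against 0.04 for all genes. *Bnip3l*, *Fundc1* and *Smurf1* are discussed by the study from these same samples, so the regional counts are no independent evidence of direction. With 10 members, 1 gene more or less moves a share by 10%. *Bnip3l*, *Fundc1* and *Pink1* were thus called higher in both comparisons and *Phb2* lower in both, whereas *Smurf1* and *Fundc2* were called in the regions alone. Whether the 2 comparisons differed for these genes was not tested, since the tables were normalized separately.

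The order of the levels changed between 2D and 3D and between the regions. Cultures and regions were extracted and normalized separately, so orders cannot be compared between them. *Phb2*, for instance, stood at 8.15 in 3D, above its 6.95 externally and 6.11 internally. In 3D, *Phb2* (8.15 ± 0.12 log2 CPM, SD, n = 4) came first, followed by *Bnip3* (7.32 ± 0.20), *Fundc2* (7.15 ± 0.07) and *Fkbp8* (7.12 ± 0.09), whose samples overlapped. *Pink1* (6.61 ± 0.13) and *Bnip3l* (6.46 ± 0.17) overlapped with each other and lay below these. *Smurf1*, *Tomm20* and *Fundc1* formed an overlapping group at 5.6 to 5.64, and *Bcl2l13* (4.16 ± 0.48) was last. In 2D, *Pink1* was ninth of the 10, at 4.5 ± 0.76, and overlapped with *Fundc1* and *Bcl2l13*. In the internal region *Pink1* was first, at 7.54 ± 0.22, above 92.8% of all genes, with samples that overlapped those of *Fkbp8* (7.34 ± 0.17), and neighbours in the order overlapped down to *Tomm20*. In the external region *Fkbp8* was first, at 7.50 ± 0.45, and *Phb2*, *Bnip3*, *Fundc2* and *Pink1* followed with overlapping samples between 6.59 and 6.95 on average.

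The promoters of *Bnip3* and *Pink1* are shown because HIF, which binds the letters ACGTG or GCGTG, is known to act on *Bnip3*, whereas *Pink1* was the member that differed most between the cultures. The windows are the 250 bases before the RefSeq start on GRCm38.p6, written 5′ to 3′ along the gene, which is on the minus strand in both cases. They cover chr7:138909507-138909756 for *Bnip3* and chr4:138326297-138326546 for *Pink1*. Capitals mark ACGTG or GCGTG on either strand, so that CACGT and CACGC are also marked.
Bnip3: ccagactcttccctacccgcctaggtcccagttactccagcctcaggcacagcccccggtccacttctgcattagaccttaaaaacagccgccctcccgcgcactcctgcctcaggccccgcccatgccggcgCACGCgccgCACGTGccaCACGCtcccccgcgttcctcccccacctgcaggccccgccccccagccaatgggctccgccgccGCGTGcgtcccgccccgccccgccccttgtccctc
Pink1: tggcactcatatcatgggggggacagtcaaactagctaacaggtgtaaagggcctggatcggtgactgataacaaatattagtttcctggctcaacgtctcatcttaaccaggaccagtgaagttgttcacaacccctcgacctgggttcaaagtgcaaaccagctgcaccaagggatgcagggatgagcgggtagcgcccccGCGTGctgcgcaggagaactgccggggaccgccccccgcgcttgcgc
The *Bnip3* window held GCGTG 3 times and ACGTG 2 times, where both ACGTG are the opposite strands of a single CACGTG. The *Pink1* window held GCGTG 1 time and ACGTG 0 times. The window of *Tomm20* held the same numbers of each as that of *Bnip3*, and that of *Smurf1* held GCGTG 4 times and ACGTG 1 time, so the count of *Bnip3* did not stand apart among the members. Among 32851 windows of the same length, 28.2% held GCGTG, 16.6% held ACGTG, 6.02% held CACGTG and 38.6% held either of the first 2. RefSeq windows were found for 9 of the 10 members, all but *Bnip3l*. A match of letters is a description and does not show binding.

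Of 15 measured genes of the HIF response, *Hif1a* itself and genes that HIF is known to induce, 0 passed in 3D in either direction. Of all genes, 9.74% were higher and 9.25% lower. At an unadjusted limma p under 0.05, 3 of the 15 were higher and 1 was lower, against 1945 and 1985 of all 11677 genes. The median log2 fold change of the 15 was 0.14. In the regions 4 of the 15 were higher internally and 3 lower, against 9.58% and 12.1% of all genes, with a median of 0.35. *Vegfa*, the vascular growth factor, was 1.19 higher on the log2 scale (adjusted p = 0.000457) and *Ddit4*, an inhibitor of mTORC1, 1.41 higher (adjusted p = 7.8e-05). *Ldha*, lactate dehydrogenase A, fell by 1.23 (adjusted p = 7.95e-06).

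The wider mitophagy and mitochondrial machinery was read from 7 further lists of 101 genes, of which 95 were measured in each data set. In 3D, 5 of the 95 passed as higher (9.74% of all genes did) and 12 as lower (9.25% of all genes), with a median of -0.11. The lower count was 5 without 3D replicate 3, 7 without 3D replicate 1 or 4, and 18 without 2D replicate 2. Over all genes the lower calls moved alike, from 1080 to 533 without 3D replicate 3. They numbered 645 and 600 without 3D replicates 1 and 4, and 1390 without 2D replicate 2. Internally, 2 passed as higher (9.58% of all genes did) and 19 as lower (12.1% of all genes), with a median of -0.11. With the recovered read totals as library sizes these counts were 8 and 12. Over all genes that setting gave 1448 higher and 1114 lower, in place of 1083 and 1370. The internal lower count was 10 without external replicate 3, 12 without internal replicate 4 and 8 with no variance trend. Over all genes, 1033, 1248 and 864 were lower in these fits, respectively.

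**Figure D4:**
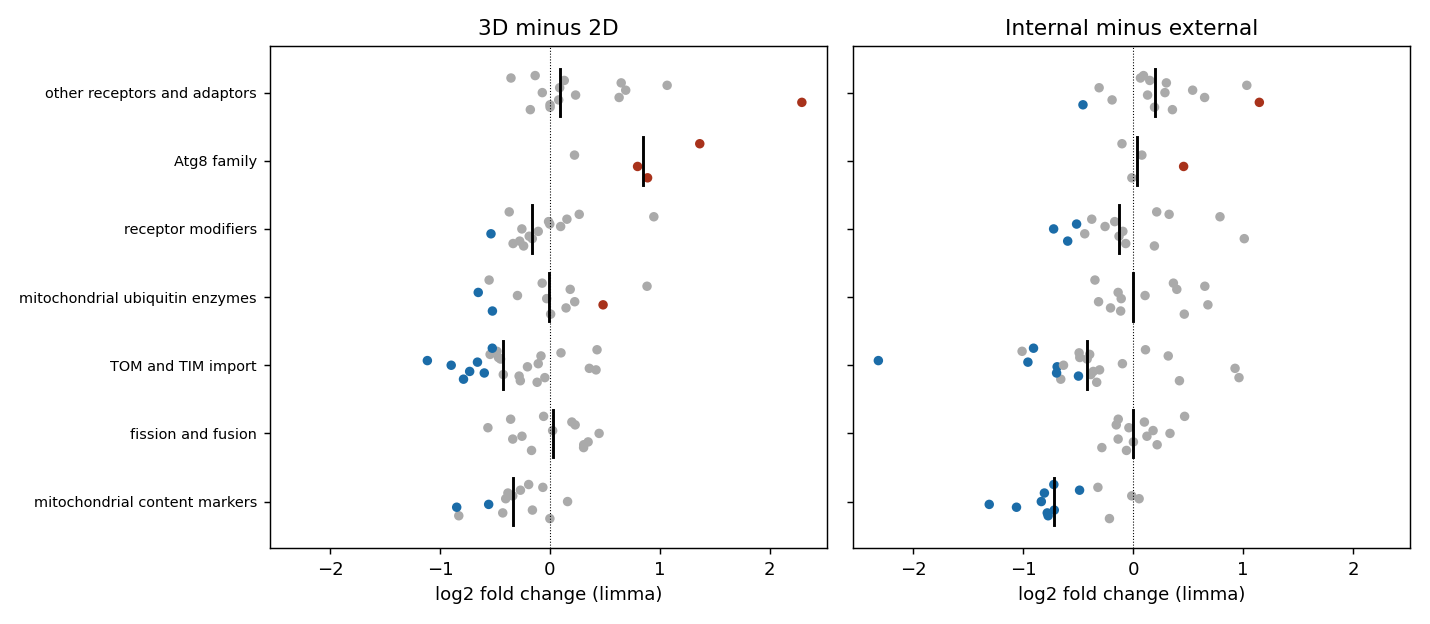
Log2 fold change of every measured gene of 7 wider lists in 3D against 2D (left) and internal against external (right). Red points passed as higher, blue points passed as lower, grey points did not pass, and black bars are the median of each list. The import and content lists lie mostly below 0 on both sides, and 3 of 4 Atg8 genes are red on the left.

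Among 15 other measured receptors and adaptors, 1 passed as higher in 3D, and internally 1 passed as higher and 1 as lower, against 9.74% of all genes higher in 3D, and 9.58% higher and 12.1% lower internally. At an unadjusted limma p under 0.05, 5 were higher and 0 lower in 3D, where 1945 and 1985 of all 11677 genes were. Internally 4 were higher and 2 lower at that threshold, where 1818 and 1975 of all 11299 genes were. The gene higher in both was *Calcoco1*, an autophagy receptor best known for the endoplasmic reticulum, at 2.29 in 3D (adjusted p = 0.00777) and 1.15 internally (adjusted p = 5.07e-05). The lower one was *Bcl2l1*, which encodes BCL-XL, at -0.46 internally (adjusted p = 0.0248). *Bcl2l1* was named outside the rule for such genes, after its value was seen.

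The Atg8 family (LC3 and GABARAP) is what the receptors bind on the autophagosome. In 3D, 3 of its 4 measured members passed as higher and 0 as lower, against 9.74% and 9.25% of all genes, with a median of 0.84. *Map1lc3a*, which encodes LC3A, was 1.36 higher on the log2 scale (adjusted p = 0.0072), from 5.83 ± 0.62 log2 CPM in 2D to 7.19 ± 0.20 in 3D (SD, n = 4). *Gabarap* (0.89, adjusted p = 0.00355) and *Gabarapl1* (0.80, adjusted p = 0.00904), named after their values were seen, also rose. Internally only *Gabarapl1* passed, at 0.46 (adjusted p = 0.0291), where 9.58% of all genes were higher, and *Map1lc3a* had a difference of -0.10 (adjusted p = 0.669).

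Of 15 modifiers of the receptors and of PINK1, such as kinases, phosphatases and proteases, 0 passed as higher in either comparison. In 3D, *Parl*, the inner membrane protease that cleaves PINK1, was the 1 gene that fell, by 0.54 (adjusted p = 0.0248). Internally 3 fell, among them *Phb*, the partner of *Phb2* in the prohibitin ring, by 0.72 (adjusted p = 0.00287). Of all genes, 9.74% rose and 9.25% fell in 3D, and 9.58% rose and 12.1% fell internally. Of 12 ubiquitin enzymes of mitochondria, 1 was higher and 2 were lower in 3D, against 9.74% and 9.25% of all genes, and *Usp15*, a deubiquitinase known to oppose mitophagy, fell by 0.65 (adjusted p = 0.0214). Internally 0 of the 12 passed in limma, where 9.58% of all genes were higher and 12.1% lower. At an unadjusted p under 0.05, 2 were higher and 0 lower, against 1818 and 1975 of all 11299 genes.

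The import machinery to which *Tomm20* belongs fell in part. The 23 measured import genes include, besides TOM and TIM subunits, the processing peptidase (*Pmpca*, *Pmpcb*) and the sorting machinery (*Samm50*, *Mtx1*, *Mtx2*). Among them, 0 rose and 7 fell in 3D, and 0 rose and 6 fell internally, with a median of -0.42 in both. Of all genes, 9.74% rose and 9.25% fell in 3D, and 9.58% rose and 12.1% fell internally. *Timm8a1*, a chaperone of the intermembrane space, differed most, at -1.12 in 3D (adjusted p = 0.00432) and at -2.32 internally (adjusted p = 0.00601). *Tomm20* was counted with the members and not in this list, and it passed in neither comparison. Of 13 fission and fusion genes, 0 passed in limma in either comparison, against the same shares of all genes. At an unadjusted p under 0.05, 0 were higher and 3 lower in 3D, where 1945 and 1985 of all 11677 genes were. Internally 1 was higher and 0 lower at that threshold, where 1818 and 1975 of all 11299 genes were.

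The 13 markers of mitochondrial content, nuclear genes for matrix and membrane proteins, included 0 that rose, 2 that fell in 3D and 9 that fell internally, with medians of -0.34 and -0.72. Of all genes, 9.74% rose and 9.25% fell in 3D, and 9.58% rose and 12.1% fell internally. The matrix chaperonins *Hspd1* and *Hspe1* fell in both comparisons, by 0.85 and 0.56 in 3D (adjusted p = 0.00123 and 0.0176) and by 1.06 and 1.31 internally (adjusted p = 0.000104 and 2.56e-06).

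Reads of 7 mitochondrially encoded genes moved the other way. They were 3.72%, 3.30%, 3.11% and 2.27% of the counted reads in 2D and 6.23%, 4.37%, 4.02% and 4.20% in 3D. All 3D samples were above all 2D samples, by 1.6 percentage points on average (4.70% ± 1.03 against 3.10% ± 0.607, SD, n = 4 each, exact two-sided permutation p = 0.0286, the smallest that 4 against 4 can give). The share was 6.98%, 6.23%, 5.42% and 5.94% internally and 3.19%, 2.53% and 3.6% externally. The internal samples were all above the external ones, by 3.04 percentage points (6.14% ± 0.654, n = 4, against 3.10% ± 0.54, n = 3, exact permutation p = 0.0571, the smallest that 4 against 3 can give). Without the gene with the most reads, the internal difference was 1.99 percentage points. The part of this share in the differences of the members was not tested.

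Genes linked to organelle loss in the lens were followed beside the receptors. Of these, 3 of 8 measured rose and 2 fell in 3D, where 9.74% and 9.25% of all genes did. Internally 5 of 9 rose and 3 fell, against 9.58% and 12.1% of all genes. Several genes of this list, among them *Hsf4*, *Tdrd7* and *Cdk1*, are discussed by the study from the same samples, so these counts are no independent evidence of direction. *Hsf4*, which encodes a heat shock transcription factor required for lens fiber maturation, was measured in the regions only, at 2.92 ± 0.62 log2 CPM internally and -0.11 ± 1.40 externally (difference 3.03, adjusted p = 0.00394). Its external level is close to the limit of 3 reads, so the size of this difference is uncertain. *Tdrd7*, a component of RNA granules in fiber cells, was 1.94 higher internally (adjusted p = 0.0239) and was at -0.14 in 3D (adjusted p = 0.753). *Cdkn1b*, the cell cycle inhibitor p27, and the lysosomal membrane gene *Lamp2* were higher in 3D, by 1.32 and 1.11 (adjusted p = 0.000727 and 0.00287), and internally by 0.66 and 0.92 (adjusted p = 0.0137 and 9.81e-05). *Lmnb1*, lamin B1 of the nuclear envelope, fell by 1.14 in 3D and fell by 2.15 internally (adjusted p = 0.00203 and 5.01e-07). *Fbl*, fibrillarin of the nucleolus, fell by 0.67 in 3D and fell by 1.52 internally (adjusted p = 0.0239 and 0.00028), and *Cdk1*, the mitotic kinase, fell by 2.7 internally (adjusted p = 0.000536) and was at -1.12 in 3D (adjusted p = 0.462).

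The genes most like 3 of the receptors over the 15 samples were sought among the 6496 genes whose mean reached 4 log2 CPM in both data sets, after each gene had been centred within each data set. *Fundc1* was most like *Tmem106b*, a lysosomal membrane gene (Pearson r = 0.953), *Fbxl5* (r = 0.945) and *Abhd4* (r = 0.943). *Bnip3l* was most like *Tuft1* (r = 0.941), *Ccndbp1* (r = 0.937) and *Prelp* (r = 0.936). *Bnip3* had no such close match, with *Cav2* (r = 0.788), *Atp6v0d1* (r = 0.776) and *Plod1* (r = 0.773) at the top. Among the members, *Bnip3l* followed *Pink1* (r = 0.827) and *Fundc1* (r = 0.815) and ran against *Phb2* (r = -0.823), whereas *Bnip3l* and its homologue *Bnip3* gave r = 0.564. *Fundc1* and *Fundc2* gave r = -0.619. These correlations are descriptions over samples that share the groups compared above, and no test was made of them.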

How the data were processed

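RNA was measured in 15 samples of 21EM15 cells by 3′ end sequencing with a strand-specific kit. The authors trimmed the reads, kept those in the sense orientation, and per the submitters' processing notes and the methods aligned them with STAR 2.7.8a to GRCm38.p6 and counted uniquely mapped reads with featureCounts 1.6.0. The annotation release is not given in the sources used here. The deposited values are log2 CPM per sample, with library sizes scaled by the authors within each of the 2 tables and genes of low CPM removed. The spacing between low values gave back whole reads (within 0.01 of a whole number) for 100.0% of 93416 and 79093 values, with a prior of 2.0 reads on average. Low levels are therefore pulled together and their fold changes understated. The tables also hold the authors' own fold changes, test statistics and p-values, which were not used. One further external sample, dropped by the authors because it lay apart in a principal component analysis, is not analysed here, so the separation of the regions is not independent of that choice.

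All genes of a table were tested with limma 3.58.1 in R 4.3.3 (variance trend, two-sided, Benjamini-Hochberg adjustment over all genes of the table), since the unit is log2 and not counts. Other steps used scipy 1.17.1, pandas 2.3.3, matplotlib 3.10.9 and numpy 2.4.6 under Python 3.11.15, and the fits were tested on simulated data. The thresholds were an adjusted p of 0.05, and 0.01 with an absolute log2 fold change over 1. Samples were grouped as labelled. The members, the lists and the tests were chosen with earlier results of these data known. Genes of the wider lists were named where they passed the stricter rule in either comparison, else the gene with the largest difference among those that passed, and *Hsf4* and *Tdrd7* always. The cell type markers were used as levels. The alternatives were the replicate number as a block, no variance trend, a robust prior, a minimum mean of 2 log2 CPM, recovered read totals as library sizes, centring on the median, a prior of 0.5 reads, and leaving out single samples, both samples numbered 2 or, for the mitochondrial read share, the gene with the most reads. The limit of 3 reads was 0.248 to 0.802 CPM, and it covers counting error only, since PCR copies cannot be told apart. A gene of the wider lists and a coding stretch are not reported here.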

Additional observations from a re-analysis of the deposited data

Results flagged for a closer look

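In 2 of the 33 groups of 4 samples examined, 1 sample stood apart from the other 3 by more than the 95% critical value of Dixon's test, and chance gives about 1 in 20. The level of *Fundc1* in 3D replicate 2 was 4.88 log2 CPM, while the other 3D samples ran from 5.77 to 5.91. In 2D, too, replicate 2 was the lowest, at 4.46. Without 3D replicate 2 the difference between 3D and 2D was 1.02 (limma adjusted p = 0.00783) in place of 0.78 (adjusted p = 0.0438). Without both samples numbered 2 it was 0.9 (adjusted p = 0.00428). The share of reads from mitochondrially encoded genes in 3D replicate 1 was 6.23%, while the other 3D samples ran from 4.02% to 4.37%. Without it the 3D share was 1.09 percentage points above that of 2D, in place of 1.6.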

How the results depend on the processing

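Of 300 values of single members under an alternative, 254 kept their direction and their side of the threshold, 35 lost a call, 3 gained one and 8 changed sign. *Pink1* in both comparisons, *Bnip3l* in the cultures and *Fundc1* in the regions passed in every alternative. Without the variance trend, 2 members passed in 3D against 2D in place of 4 (0 lower in place of 1), and 2 internally in place of 6 (2 higher in place of 4, 0 lower in place of 2). The wider lists then had 9 calls internally in place of 21 (1 higher in place of 2, 8 lower in place of 19). Over all genes, 1009 were then higher and 855 lower in 3D, and 624 higher and 864 lower internally. Centring samples on their median left 0 members lower in 3D and 1 wider gene higher internally, and leaving out both samples numbered 2 left 0 members lower and 8 wider genes higher in 3D in place of 5. A robust prior gave 4 wider genes higher internally. Recovered read totals as library sizes moved the median of all genes by 0.11 between the regions, gave 8 wider genes higher and 12 lower internally, and turned *Bnip3* to 0.09.

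Deviations of same-numbered samples from their group means correlated at 0.227, 0.503, 0.066 and 0.005 for numbers 1 to 4 in the cultures. Differently numbered culture samples gave -0.33 to 0.188. In the regions same-numbered samples gave -0.065 to -0.044. In the cultures 4 of 8 samples were most like their own number, and in the regions 0 of 6. Whether equal numbers mark samples grown or prepared together was not tested. The main fits did not take the numbers as pairs in either data set, and the replicate block was run as an alternative. With the replicate block, the fit of all genes called 1343 higher and 1337 lower in 3D (1137 and 1080 without it) and 719 higher and 1064 lower internally (1083 and 1370). Under the block 3 members passed internally (2 higher and 1 lower), 12 wider genes (1 higher and 11 lower), and *Bnip3* was at 0.17, while *Bnip3* passed in 3D (adjusted p = 0.0192). The internal calls of *Bnip3l* (adjusted p = 0.0746), *Fundc2* (0.0701) and *Smurf1* (0.1) were the ones lost.

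When single samples were left out, the members called in 3D numbered 2 to 4 (2 to 3 higher, 0 to 2 lower) and internally 4 to 6 (2 to 4 higher, 1 to 2 lower). The wider genes numbered 9 to 26 in 3D (4 to 8 higher, 5 to 18 lower), lowest without 3D replicate 3 and highest without 2D replicate 2, and 13 to 20 internally (1 to 4 higher, 10 to 16 lower), lowest without external replicate 3. Over all genes, 614 to 1444 were then higher and 533 to 1390 lower in 3D. Internally 783 to 1075 of all genes were higher and 1003 to 1303 lower. Differences then ran from -0.22 to 0.17 for *Bnip3*, -0.33 to 0.09 for *Fkbp8* and -0.05 to 0.19 for *Tomm20* internally, and from -0.42 to 0.05 for *Bcl2l13* in 3D. The mitochondrial read share differed by 1.09 to 1.83 percentage points in 3D, with an exact permutation p of 0.0571, the smallest that 4 against 3 can give, and by 2.75 to 3.28 internally. The cause of these changes was not tested, beyond the smaller number of samples in the latter fits.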
